A study of Mus musculus with 8 samples.

Results

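The genes described here are 35 strain-switched long noncoding RNAs of mouse CD4+ CD8+ (double-positive) thymocytes, genes whose mean level differed at least 4-fold between C57BL/6J and NOD/ShiLtJ (NOD) mice. They were chosen by their measured strain means out of 9252 long noncoding genes of 6 GENCODE M21 types (lincRNA, antisense, processed transcript, sense intronic, sense overlapping and bidirectional promoter), among 53465 genes in the deposited tables. A gene was taken when the mean of its 4 libraries in the higher strain was 2 or more counts per M reads in genes (CPM) and at least 4 times the mean of the other strain. BC023719, Gimap1os and 2 chromosome segments, on chromosomes 4 and 2, were left out. The measured strain difference therefore chose the members, and it is given below as a description with no test. Of the 35 genes, 18 were higher in NOD and 17 in C57BL/6J.

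C57BL/6J is a common inbred laboratory strain, and NOD is an inbred strain prone to autoimmune diabetes. Neither group carried a labelled treatment or engineered allele. Live double-positive thymocytes, the stage at which developing T cells carry both co-receptors and test a rearranged T cell receptor, were sorted by flow cytometry from each strain, and total RNA was sequenced with a strand-preserving kit for small inputs. There were 4 libraries per strain, numbered B1 T1, B1 T2, B2 T1 and B2 T2. The labels do not say what the B and T numbers stand for, so the p-values here reflect no more than the spread among these samples, and that spread may be technical.

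Long noncoding RNAs are transcripts with little or no coding potential that are often capped, spliced and polyadenylated like messenger RNA. Some start at the promoter of a coding gene and run away from it, some run antisense across a coding gene, and others lie in the space between genes. Their levels tend to be low and to differ between cell types, and a few, such as Nron, a scaffold that holds back the transcription factor NFAT, have a described function. Most of the genes named here have none that is established.

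The following sequences show where the starts of the most informative members lie, on build GRCm38. The first shows the GC-rich interval shared by C030037D09Rik, a lincRNA, and Msi2, an RNA-binding protein gene that starts on the opposite strand. It is the RefSeq window chr11:88718393-88718692 on the plus strand, from 250 bases before to 50 after the start of C030037D09Rik, and the capitals mark the 129 bases between the 2 starts.
C030037D09Rik: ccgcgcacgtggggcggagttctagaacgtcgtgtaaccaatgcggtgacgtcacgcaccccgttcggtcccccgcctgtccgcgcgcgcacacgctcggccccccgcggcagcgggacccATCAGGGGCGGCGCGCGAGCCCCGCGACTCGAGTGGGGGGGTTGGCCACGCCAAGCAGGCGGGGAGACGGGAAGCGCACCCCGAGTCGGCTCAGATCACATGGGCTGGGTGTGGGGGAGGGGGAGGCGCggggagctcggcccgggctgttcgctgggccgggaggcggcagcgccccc
This window held 75.7% G and C and 42 CpG dinucleotides. The second divergent pair is Ptprv and Ptpn7, a protein tyrosine phosphatase gene. Ptprv was taken as noncoding by its annotated type, processed transcript, alone, and its coding potential was not tested. The window of Ptpn7 at chr1:135132450-135132749, plus strand, was chosen after the values were seen, and its capitals mark the 105 bases between the start of Ptprv on the minus strand and that of Ptpn7.
Ptpn7: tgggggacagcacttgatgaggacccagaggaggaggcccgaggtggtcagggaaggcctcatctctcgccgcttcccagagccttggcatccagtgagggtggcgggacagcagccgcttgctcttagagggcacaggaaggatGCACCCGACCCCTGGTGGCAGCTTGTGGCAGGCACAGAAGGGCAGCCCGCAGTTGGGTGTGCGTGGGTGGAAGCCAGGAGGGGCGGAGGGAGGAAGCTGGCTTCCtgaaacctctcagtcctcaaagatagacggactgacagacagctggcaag
This interval was less CpG-rich, with 63.3% G and C and 10 CpG dinucleotides in the window.

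The start of Nron at chr2:33805566-33805865, plus strand, is shown because Nron was near 0 in every NOD library, and it too was chosen after the values were seen. Capitals mark 4 matches to the E-box letters CAGNTG, which cover CACCTG and CAACTG, and 1 match to the TATA letters TATAAA, on either strand.
Nron: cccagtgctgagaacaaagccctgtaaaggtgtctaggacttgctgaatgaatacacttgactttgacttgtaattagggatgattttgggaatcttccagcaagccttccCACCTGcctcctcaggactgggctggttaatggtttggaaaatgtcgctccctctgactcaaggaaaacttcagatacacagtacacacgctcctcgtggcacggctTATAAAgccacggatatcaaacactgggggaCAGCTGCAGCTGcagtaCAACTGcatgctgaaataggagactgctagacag
The windows of the members with the highest level per kilobase in NOD are those of Gm39822 and 2310001H17Rik. That of Gm39822, at chr11:51898069-51898368 on the plus strand, surrounds a RefSeq start 647 bases upstream of the GENCODE start, and its capitals mark 1 match to the TCF letters CTTTGAT.
Gm39822: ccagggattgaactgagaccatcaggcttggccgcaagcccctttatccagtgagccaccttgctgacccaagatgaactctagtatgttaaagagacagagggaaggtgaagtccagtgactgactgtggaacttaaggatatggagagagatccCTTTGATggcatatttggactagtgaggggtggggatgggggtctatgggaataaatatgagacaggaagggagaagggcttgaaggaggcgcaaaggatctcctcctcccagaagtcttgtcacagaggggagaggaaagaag
That of 2310001H17Rik, at chr6:129238433-129238732 on the minus strand, surrounds a RefSeq start 243 bases inside the GENCODE gene, and its capitals mark 1 E-box match.
2310001H17Rik: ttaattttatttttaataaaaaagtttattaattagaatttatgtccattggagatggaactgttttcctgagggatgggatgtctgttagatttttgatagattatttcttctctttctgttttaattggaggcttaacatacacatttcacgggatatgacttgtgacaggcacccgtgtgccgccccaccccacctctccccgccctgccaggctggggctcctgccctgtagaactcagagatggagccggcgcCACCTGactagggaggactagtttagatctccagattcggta

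For 2 further members no promoter window was at hand, and 200 bases of a spliced GENCODE transcript are shown around the first exon junction, with the last 100 bases of exon 1 in capitals. Dgkeos and Gm44175 had the highest level per kilobase in C57BL/6J. Dgkeos, at chr11:89066088-89069098 on the plus strand, reads as follows.
Dgkeos: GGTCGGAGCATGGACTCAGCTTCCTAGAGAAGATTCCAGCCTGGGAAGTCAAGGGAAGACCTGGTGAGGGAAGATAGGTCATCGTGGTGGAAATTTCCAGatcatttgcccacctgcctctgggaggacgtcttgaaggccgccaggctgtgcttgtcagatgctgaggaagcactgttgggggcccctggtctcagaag
Gm44175, at chr6:71354351-71360829 on the minus strand, is the other.
Gm44175: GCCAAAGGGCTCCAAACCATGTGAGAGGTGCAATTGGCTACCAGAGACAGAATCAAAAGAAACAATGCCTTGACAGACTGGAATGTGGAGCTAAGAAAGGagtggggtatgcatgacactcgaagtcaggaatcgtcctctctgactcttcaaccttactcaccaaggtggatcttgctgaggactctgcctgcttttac

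The C57BL/6J libraries held 8.527 to 15.702 M reads in genes and the NOD libraries 23.533 to 30.371 M, so counts near 0 were better resolved in NOD. Log expression correlated at 0.960 to 0.989 between libraries of the same strain (12 pairs) and at 0.922 to 0.956 between strains (16 pairs), across genes. Markers of double-positive thymocytes summed to 16100 to 18100 CPM in C57BL/6J libraries and 12200 to 15100 CPM in NOD libraries, with no overlap. None of these 9 genes passed the strain test. Myeloid markers summed to 5.39 to 8.74 CPM in C57BL/6J and 10.0 to 21.2 CPM in NOD, with Cd14 at 0 in every library. Csf1r, a myeloid growth factor receptor, was the 1 of 5 myeloid markers to pass the test, higher in NOD. Dendritic markers (0.993 to 2.36 against 3.23 to 3.74 CPM) and NK markers (0.218 to 0.701 against 1.03 to 1.75 CPM) were also lower in C57BL/6J with no overlap, while markers of mature single-positive T cells, the most abundant of these sets, were higher in C57BL/6J with no overlap (137 to 153 against 99.4 to 117 CPM). Markers of B cells (10.0 to 17.9 against 9.75 to 12.7 CPM), erythroid cells (1.34 to 5.90 against 1.61 to 14.1 CPM) and thymic epithelium (4.20 to 7.35 against 7.17 to 8.43 CPM) overlapped. The part of these cells in the levels of the members was not tested. In bulk RNA, fewer expressing cells and less RNA per cell cannot be told apart.

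In CPM, which is not scaled for gene length, the members higher in C57BL/6J were led by Gm44175, a lincRNA that lies between Cd8b1 and Cd8a, the genes of both chains of the CD8 co-receptor. It stood at 51.1, 92.0, 85.9 and 97.6 CPM in the C57BL/6J libraries and at 3.74, 1.90, 2.50 and 1.35 CPM in the NOD libraries, a 34.4-fold difference of the means. Dgkeos, which runs antisense to Dgke, the gene of diacylglycerol kinase epsilon, had 85.6, 82.9, 74.9 and 68.1 CPM in C57BL/6J and 11.6, 11.9, 6.45 and 10.2 CPM in NOD (7.77-fold). Both sets of libraries stood wholly apart, and Dgkeos was still present in every NOD library.

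Gm32004, a processed transcript on chromosome 13, had 20.5, 40.2, 31.3 and 32.8 CPM in C57BL/6J and 0.47, 0.30, 0.49 and 0 CPM in NOD (99.3-fold). 5830444B04Rik, which runs antisense to the cilium gene Cfap74, had 23.1, 27.8, 27.1 and 24.4 CPM in C57BL/6J against 0.47, 1.73, 0.72 and 0.47 CPM in NOD (30.2-fold). Nron had 27.2, 29.1, 21.2 and 22.9 CPM in C57BL/6J against 0.17, 0.51, 0.26 and 0.08 CPM in NOD (98.5-fold). For these 3 genes every NOD library was under 2 CPM and every C57BL/6J library above 20 CPM. Whether NOD reads were lost in mapping to GRCm38 was not tested, for these or any other members.

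Gm43305, a single-exon processed transcript on chromosome 14, had 10.8, 6.95, 14.9 and 13.0 CPM in C57BL/6J and 0.25, 0.38, 0.40 and 0.32 CPM in NOD (33.9-fold). The lincRNA 2610035D17Rik on chromosome 11 had 15.0, 17.3, 5.73 and 7.27 CPM in C57BL/6J and 0.08, 0.17, 0 and 0 CPM in NOD (178-fold). Gm42047, a lincRNA on chromosome 8, had 3.28, 5.76, 17.6 and 18.4 CPM in C57BL/6J and no read in NOD. With 536 reads against 0, and a floor of 3 counts over the strain, its counts were at least 383-fold higher in C57BL/6J. This bound covers counting only, and loss of NOD reads in mapping was not tested. Within C57BL/6J the B1 libraries of 2610035D17Rik were the higher ones (B1 over B2, 2.48-fold), and for Gm42047 the B2 libraries were (3.98-fold), so both differed between samples of 1 strain while staying far above NOD.

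Among the members higher in NOD, 2310001H17Rik had the highest mean CPM. This lincRNA had 5.02, 4.67, 8.41 and 6.92 CPM in C57BL/6J and 64.8, 63.4, 58.9 and 44.1 CPM in NOD (9.24-fold). Gm39822, a lincRNA on chromosome 11, had 4.73, 5.06, 8.02 and 8.68 CPM in C57BL/6J and 45.2, 47.9, 33.7 and 34.7 CPM in NOD (6.10-fold). Both were present in every C57BL/6J library, and no library of 1 strain reached the range of the other.

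Ptprv had 0.95, 1.79, 3.57 and 2.93 CPM in C57BL/6J and 25.0, 23.0, 34.7 and 31.1 CPM in NOD (12.3-fold). The lincRNA Gm3716 had 1.82, 1.19, 1.08 and 1.06 CPM in C57BL/6J and 26.7, 30.1, 18.2 and 18.0 CPM in NOD (18.1-fold). BC018473, annotated as antisense, had 0.36, 0.10, 0.19 and 0.12 CPM in C57BL/6J and 18.9, 15.2, 23.5 and 25.6 CPM in NOD (108-fold). Of these 3 genes, BC018473 was the one closest to an on-off pattern, with every C57BL/6J library under 0.5 CPM.

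Gm13920, which runs antisense within Ldlrad3, had 1.09, 1.09, 1.59 and 1.76 CPM in C57BL/6J and 9.52, 7.34, 9.19 and 8.23 CPM in NOD (6.19-fold). The processed transcript 1810053B23Rik had 0, 0.30, 0 and 0 CPM in C57BL/6J and 7.52, 8.02, 6.68 and 8.07 CPM in NOD. Its 3 reads against 774 give a depth-scaled ratio of 120, with an exact 95% interval of 41.1 to 585 that covers counting error only. Gm29113, a single-exon lincRNA, had 1.02, 0.99, 1.91 and 1.06 CPM in C57BL/6J and 9.35, 8.94, 6.95 and 1.42 CPM in NOD (5.36-fold), and its last NOD library lay inside the C57BL/6J range.

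**Figure D1:**
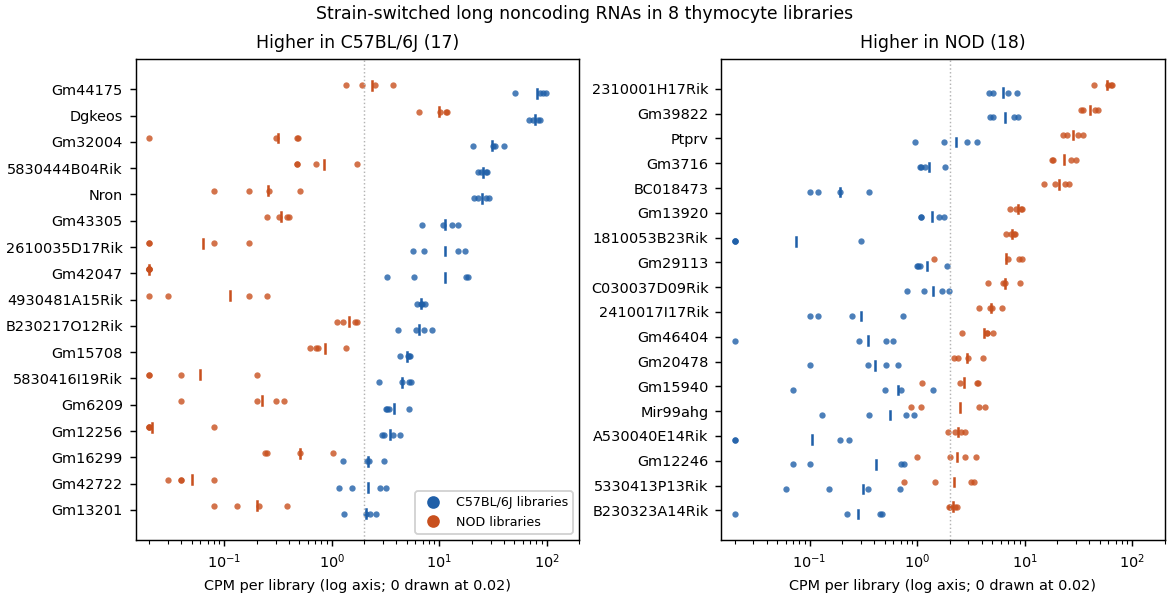
CPM of the 35 long noncoding RNAs in each of the 8 libraries on a log axis (values of 0 are drawn at 0.02), with points for libraries and short bars for the mean of 4; the dotted line marks the limit of 2 CPM. The C57BL/6J and NOD points are apart for 32 genes and overlap for Gm29113, Gm15940 and Mir99ahg.

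The remaining members were given by their means. Higher in C57BL/6J were 4930481A15Rik (6.81 against 0.114 CPM), B230217O12Rik (6.49 against 1.44), Gm15708 (5.01 against 0.864), 5830416I19Rik (4.47 against 0.0593) and Gm6209 (3.79 against 0.223). The same held for Gm16299 (2.17 against 0.505 CPM) and Gm42722 (2.16 against 0.0498). Gm12256 had 166 reads in C57BL/6J and 2 in NOD, a depth-scaled ratio of 178 with an exact 95% interval of 48.4 to 1480. That interval, too, covers counting error only. Higher in NOD were Gm46404 (0.349 against 4.16 CPM), Mir99ahg, the host transcript of a microRNA cluster (0.556 against 2.50), Gm12246 (0.410 against 2.33) and 5330413P13Rik (0.314 against 2.20). Thus the lower-strain mean was under 0.5 CPM for 20 of the 35 members, and the median fold was 12.1 over those with both means above 0.

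The limits cut through a continuous range. The members just inside the fold limit were Gm15940 (4.08-fold), Gm16299 (4.30-fold) and Mir99ahg (4.50-fold), and Gm26740 (3.72-fold), 0610038B21Rik (3.57-fold) and 4933404O12Rik (3.53-fold) fell just outside. At the level limit, Gm13201 (2.07 CPM), B230323A14Rik (2.15 CPM) and Gm42722 (2.16 CPM) were inside, and A730081D07Rik (1.96 CPM), C4a (1.89 CPM) and Gm10602 (1.73 CPM) were outside. Of the 594 long noncoding genes at 2 CPM or more, 37 (6.23%) had means 4-fold apart, against 186 of 10093 coding genes (1.84%). These sets were not matched for level, and their shares were not tested against each other. No overlap between the strains' libraries was seen for 102 of the 594 (17.2%) and for 32 of the 35 members, a share that the choice of members largely fixes. Among coding genes tested it was 1971 of 11791 (16.7%).

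In 6 members the B1 and B2 samples of the higher strain were at least 2-fold apart, beside a median ratio of 1.35 over all members. Besides 2610035D17Rik and Gm42047 these were Mir99ahg (4.11-fold), 5330413P13Rik (2.95-fold), Gm29113 (2.19-fold) and Gm15940 (2.03-fold), all 4 higher in B1 of NOD. Within NOD B2, libraries T1 and T2 stood at 1.09 and 0.87 CPM for Mir99ahg and at 0.76 and 1.46 CPM for 5330413P13Rik. They stood at 6.95 and 1.42 CPM for Gm29113 and at 2.50 and 1.11 CPM for Gm15940, so B2 itself was not uniform. What the B number stands for in these values was not tested.

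The members were spread over 15 chromosomes, with 7 on chromosome 11. By type, 13 were lincRNAs (8 higher in NOD), 13 antisense genes (6 higher in NOD), 7 processed transcripts (3 higher in NOD) and 2 sense intronic genes (1 higher in NOD). Beside the 556 other long noncoding genes at 2 CPM or more, members had a similar exonic length (median 2.77 against 2.33 kb) and more exon blocks (median 4 against 2). A single exon block was found in 3 members and in 151 of the others. Fewer members overlapped a coding gene (17, 48.6%, against 363, 65.3%), and those that did not lay farther from one (median gap 17.2 against 5.03 kb). Sense intronic genes, which make up 17.3% of the others, were 5.71% of the members. Per kilobase of exon, the higher strain's median level was 2.84 CPM for members and 3.13 CPM for the others. On that scale Dgkeos (36.5 CPM per kb) was the highest member in its higher strain, then Gm44175 (19.2), Gm39822 (17.7) and Gm32004 (13.2), and Mir99ahg was the lowest (0.175). These are counts and medians with no test.

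The question put to the neighbouring coding genes was whether they also differed between the strains. The choice of members did not use the neighbours' counts. Where a member overlaps or adjoins its neighbour, however, reads may have been counted for the wrong gene, which was not tested. The 35 members had 34 distinct nearest coding genes, of which 26 were expressed enough to test with the edgeR quasi-likelihood test on libraries summed by strain and B number (2 samples per strain), adjusted over 17291 genes. Of these 26, 9 (34.6%) passed at an adjusted p under 0.05, 6 higher and 3 lower in NOD. Over members that overlap no coding gene, 4 of 14 passed. These 4 were Agtrap, Msi2, Clec2d and Gm8909, the last of which is overlapped by another member. With the B number as a block in edgeR, Msi2 (adjusted p = 0.0789) and Gm8909 (adjusted p = 0.0580) did not pass. Further limits on all 4 are given with each gene below. The background was 637 of all 17291 genes (3.68%) and 397 of 11791 coding genes (3.37%), with 213 coding genes higher (1.81%) and 184 lower (1.56%) in NOD. Among the nearest coding genes of the other long noncoding genes, 11 of 440 (2.50%) passed. The median log2 fold change was 0.05 for the members' neighbours and 0.02 for all coding genes. The median absolute log2 fold change was 0.52 for the members' neighbours, 0.18 for those of the other long noncoding genes and 0.20 for all coding genes. Leaving out either C57BL/6J sample left 6 of the 26 past the test, and leaving out NOD sample 1 or 2 left 9 or 11.

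**Figure D2:**
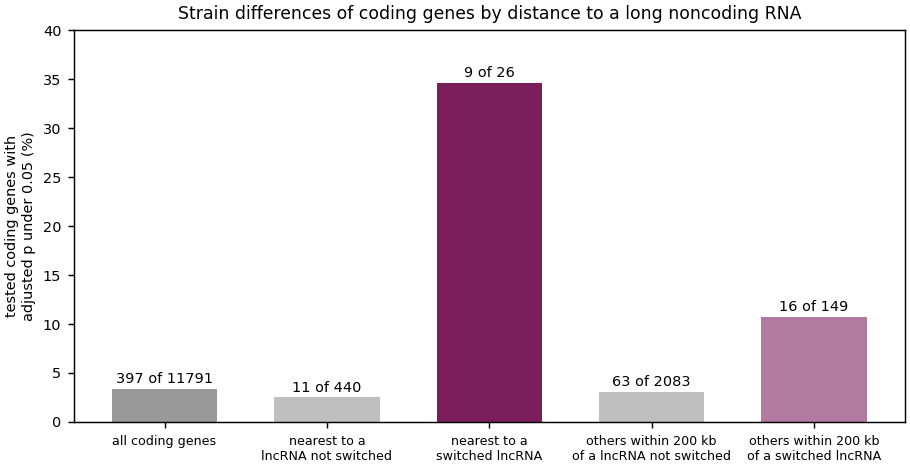
Share of tested coding genes with an edgeR adjusted p under 0.05 between the strains, with the number past the test and the number tested above each bar. The share was 34.6% for the nearest coding genes of switched long noncoding RNAs (lncRNAs), 10.7% for other coding genes within 200 kb of them, and 2.50% to 3.37% in the other 3 sets.

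The direction of the neighbours mostly followed that of the members. The sign of each neighbour's log2 fold change was counted, however small, and whether or not it passed. Counting each member with its tested neighbour as a pair, 21 of 27 pairs (77.8%) differed in the same direction, beside 271 of 495 pairs (54.7%) of the other long noncoding genes. Those other genes were less than 4-fold apart, and their direction was that of the larger mean, however small the difference. Their share is therefore not a matched baseline for the members. Of the 10 pairs whose coding gene passed, 9 differed in the same direction and 1 in the opposite one. By position, neighbours passed for 5 of 11 overlapped on the opposite strand and 1 of 2 overlapped on the same strand. Without overlap, they passed for 1 of 2 head-to-head pairs (starts within 5 kb, pointing away), 3 of 8 others within 50 kb and 0 of 4 farther away. Some opposite-strand overlaps joined the start ends of both genes, also with starts within 5 kb. They were those of B230217O12Rik (0.10 kb), Gm20478 (0.56 kb), Dgkeos (2.12 kb), B230323A14Rik (2.20 kb) and A530040E14Rik (3.91 kb). Of their neighbours, Gm8909, Foxb1 and A530032D15Rik passed, and Fam160b1 and Dgke did not. One passing neighbour, Gm8909, is shared by 2 members, and it is the one counted for Gm20478 (opposite strand) and 2410017I17Rik (within 50 kb).

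**Figure D3:**
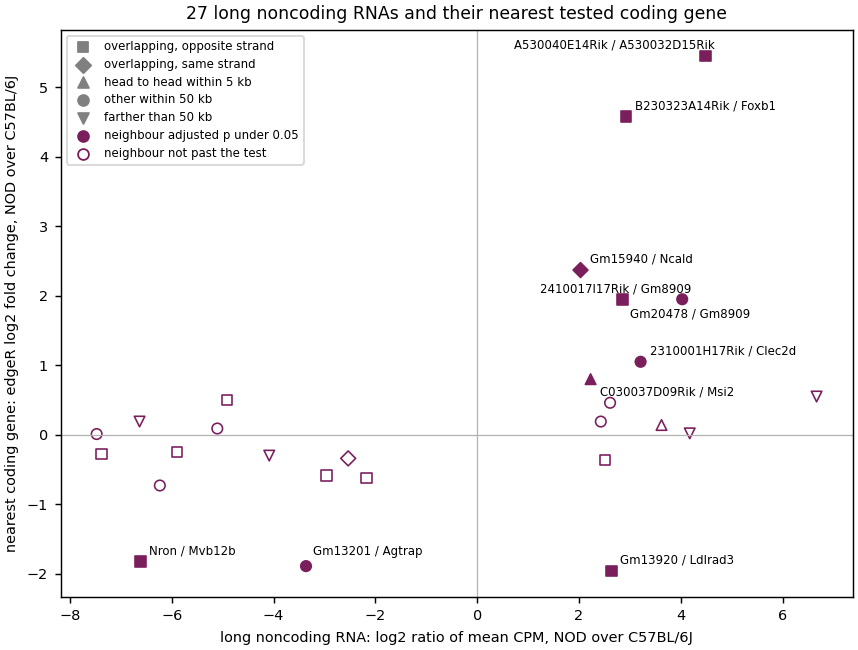
For 27 long noncoding RNAs, the log2 ratio of mean CPM (NOD over C57BL/6J, x axis) against the edgeR log2 fold change of the nearest tested coding gene (y axis), with symbols for position and filled symbols for coding genes past the test. The filled symbols lie in the quadrants of the same direction except Gm13920 with Ldlrad3, and most open symbols lie near 0 on the y axis.

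Among antisense members, B230323A14Rik lay opposite Foxb1, a forkhead transcription factor gene best known from the developing brain. B230323A14Rik had 0.22, 0, 0.45 and 0.47 CPM in C57BL/6J and 2.00, 2.24, 2.37 and 1.98 CPM in NOD. Foxb1 had 0.58, 1.19, 0.89 and 0.94 CPM in C57BL/6J and 26.5, 21.4, 18.5 and 20.1 CPM in NOD (log2 fold change 4.58 ± 0.33, SE, edgeR adjusted p = 9.85e-05). Both genes were higher in every NOD library than in any C57BL/6J library. They share 418 exon bases on opposite strands, and whether reads of 1 were counted for the other was not tested.

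A530040E14Rik runs antisense to A530032D15Rik on chromosome 1. It had 0, 0, 0.19 and 0.23 CPM in C57BL/6J and 1.95, 2.24, 2.77 and 2.57 CPM in NOD. Its neighbour had 0, 0.10, 0.06 and 0.23 CPM in C57BL/6J and 4.12, 4.68, 3.65 and 2.97 CPM in NOD (log2 fold change 5.45 ± 0.63, edgeR adjusted p = 0.00153). The pair was near 0 in all C57BL/6J libraries and present in all NOD libraries.

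For Nron, whose values are given above, the coding gene on the opposite strand was Mvb12b, which encodes a subunit of the ESCRT-I sorting complex. Mvb12b had 179, 171, 180 and 178 CPM in C57BL/6J and 54.0, 43.7, 54.5 and 55.0 CPM in NOD (log2 fold change -1.82 ± 0.16, edgeR adjusted p = 0.000391). Mvb12b thus fell to a mean of 51.8 CPM in NOD, where Nron was near 0.

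The opposite arrangement was found at Gm13920, which was higher in NOD while Ldlrad3, an LDL receptor family gene that contains it, fell. Ldlrad3 had 68.9, 89.8, 89.9 and 92.8 CPM in C57BL/6J and 27.1, 27.1, 19.1 and 15.8 CPM in NOD (log2 fold change -1.96 ± 0.23, edgeR adjusted p = 0.00177). Neither gene had overlapping strains.

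At the class I histocompatibility region of chromosome 17, 2410017I17Rik and Gm20478 lie 4.8 kb apart on either side of Gm8909. 2410017I17Rik had 0.73, 0.10, 0.25 and 0.12 CPM in C57BL/6J and 3.78, 4.98, 4.71 and 6.09 CPM in NOD. Gm20478 had 0.66, 0.10, 0.51 and 0.35 CPM in C57BL/6J and 2.42, 2.19, 3.00 and 4.11 CPM in NOD, and shares 385 exon bases with Gm8909 on the opposite strand. Gm8909 had 2.40, 2.48, 1.72 and 1.52 CPM in C57BL/6J and 7.65, 6.07, 8.92 and 10.3 CPM in NOD (log2 fold change 1.95 ± 0.39, edgeR adjusted p = 0.0267). All 3 genes were higher in every NOD library. The adjusted p of Gm8909 was 0.0801 and 0.164 without C57BL/6J sample 1 and 2, and 0.0580 with the B number as a block. Genes of this family are similar in sequence, so the split of reads among them is uncertain.

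The same-strand case was Gm15940, which lies within an intron of Ncald, the gene of the calcium sensor neurocalcin delta. Gm15940 had 0.07, 0.50, 0.70 and 1.41 CPM in C57BL/6J and 3.61, 3.71, 2.50 and 1.11 CPM in NOD, so that the strains overlapped in 1 library each. Ncald had 2.98, 1.49, 2.55 and 1.64 CPM in C57BL/6J and 15.1, 13.8, 11.6 and 8.19 CPM in NOD without overlap (log2 fold change 2.37 ± 0.35, edgeR adjusted p = 0.00554). Unspliced Ncald RNA and Gm15940 cannot be told apart in these counts.

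Of the head-to-head pairs, C030037D09Rik had 0.80, 1.69, 1.15 and 1.99 CPM in C57BL/6J and 6.59, 4.56, 8.96 and 6.29 CPM in NOD. Msi2, across the GC-rich interval shown above, had 168, 174, 219 and 217 CPM in C57BL/6J and 385, 331, 363 and 310 CPM in NOD (log2 fold change 0.80 ± 0.17, edgeR adjusted p = 0.0349). Neither gene had overlapping strains, but the call for Msi2 was lost without C57BL/6J sample 1 or 2 (adjusted p = 0.284 and 0.0812), with the B number as a block (0.0789) and without scaling factors (0.0504). The 12.3-fold difference of Ptprv lay beside Ptpn7, which stood at 229 ± 6.33 CPM in the C57BL/6J libraries and 260 ± 30.4 CPM in the NOD ones (SD, n = 4; log2 fold change 0.14 ± 0.17, edgeR adjusted p = 0.838). Of these genes with starts 0.11 kb apart, the coding gene did not pass.

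Among pairs that did not overlap, Gm13201 lies 1.64 kb downstream of Agtrap on the same strand, just beyond the left-out segment of chromosome 4. Agtrap encodes a protein bound to the angiotensin receptor. Gm13201 had 1.31, 2.08, 2.29 and 2.58 CPM in C57BL/6J and 0.38, 0.21, 0.13 and 0.08 CPM in NOD. Agtrap had 154, 154, 134 and 139 CPM in C57BL/6J and 38.5, 38.9, 42.5 and 41.8 CPM in NOD (log2 fold change -1.89 ± 0.18, edgeR adjusted p = 0.000460). Both were lower in every NOD library than in any C57BL/6J library. Whether RNA running on past the end of Agtrap was counted for Gm13201 was not tested.

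2310001H17Rik lies 21.9 kb from Clec2d, which encodes a lectin-like ligand of natural killer cell receptors. Clec2d had 45.1, 45.2, 52.9 and 48.3 CPM in C57BL/6J and 106, 119, 85.0 and 104 CPM in NOD (log2 fold change 1.05 ± 0.17, edgeR adjusted p = 0.0107). The strains were apart, but the adjusted p was 0.121 and 0.0614 without C57BL/6J sample 1 and 2.

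**Figure D4:**
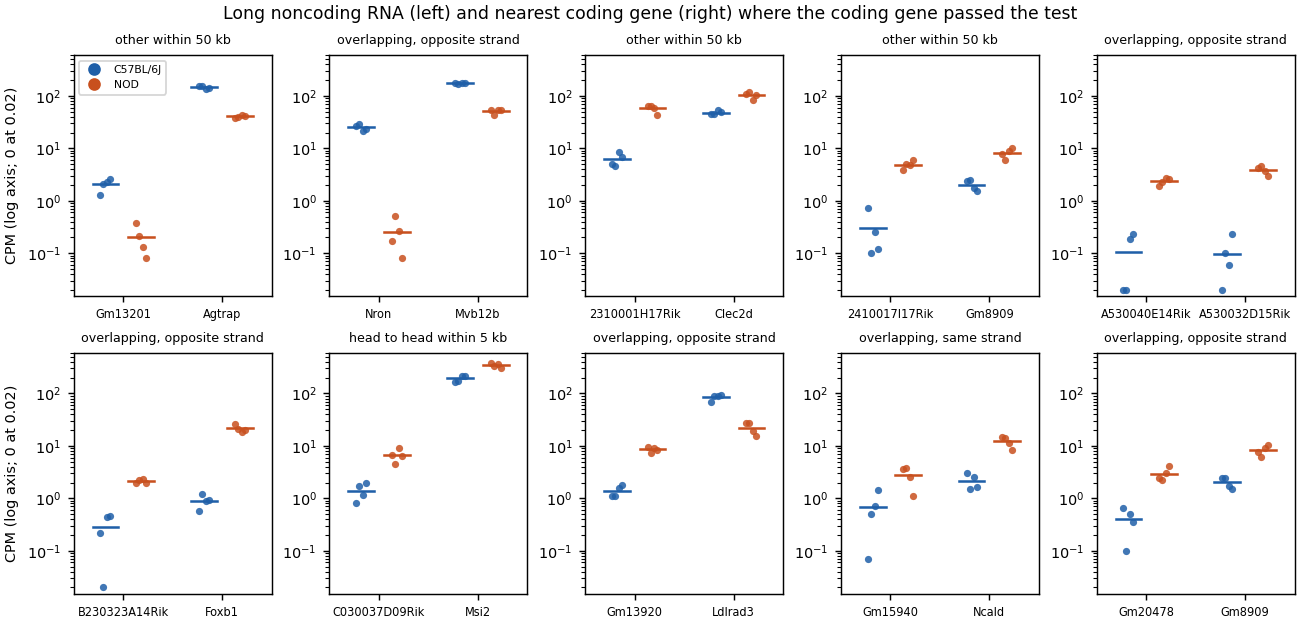
CPM per library on a log axis (values of 0 are drawn at 0.02) for the 10 long noncoding RNAs whose nearest coding gene passed the test, each with that gene at its right; bars are means of 4 libraries. In 9 panels both genes are higher in the same strain, and in the panel of Gm13920 and Ldlrad3 they are higher in different strains.

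The largest member differences did not all come with a neighbour past the test. Cd8a, 12.6 kb from Gm44175, stood at 1541 ± 44.4 CPM in the C57BL/6J libraries and 1689 ± 115 CPM in the NOD ones (SD, n = 4; log2 fold change 0.09 ± 0.17, edgeR adjusted p = 0.910). Cd8b1, on the other side of Gm44175, stood at 1685 ± 119 and 1096 ± 132 CPM (log2 fold change -0.68 ± 0.18, edgeR adjusted p = 0.0911), so the 34.4-fold difference of Gm44175 lay between coding genes that differed far less. Dgke, opposite Dgkeos, stood at 302 ± 61.0 and 203 ± 14.9 CPM (log2 fold change -0.59 ± 0.18, edgeR adjusted p = 0.143).

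Other abundant neighbours also did not pass. They were Klf3, a transcription factor gene 193 kb from Gm3716 (346 and 360 CPM, adjusted p = 0.979), Ikzf2, the gene of the transcription factor Helios 37.4 kb from Gm29113 (169 and 195 CPM, adjusted p = 0.803), and Jade2, 41.3 kb from Gm39822 (138 and 196 CPM, adjusted p = 0.253), all by edgeR. For Gm32004 the nearest coding gene was Ndufaf2, a complex I assembly factor gene 437 kb away (9.34 and 11.2 CPM, adjusted p = 0.881). Setd4, a methyltransferase gene 217 kb from 1810053B23Rik, had 10.9 and 16.5 CPM (adjusted p = 0.401), Cfap74 had 69.3 and 98.3 CPM (adjusted p = 0.292), and Slc39a11, a zinc transporter gene near 2610035D17Rik, had 4.85 and 4.90 CPM (adjusted p = 0.997). Neighbours not named so far ranged in adjusted p from 0.0868 (Fam160b1, opposite B230217O12Rik) to 0.832 (Bri3, with Gm15708). St6galnac1 (BC018473), Olfr49 (Gm43305) and Gm20388 (Gm42047), with 5 other neighbours, had too few reads to test, at means of 0 to 0.158 CPM. Gm20388, annotated over chr8:119910841-124345722, contains Gm42047 on the same strand and stood at 0 CPM in every library.

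The surroundings were then widened to 200 kb on either side. Of 149 tested coding genes there other than the nearest ones, 16 (10.7%) passed, beside 63 of 2083 (3.02%) around the other long noncoding genes. With the nearest genes the counts were 25 of 173 (14.5%) and 74 of 2521 (2.94%). Several of the 16 lay together. Near 2410017I17Rik and Gm20478 they were the class I genes H2-T3 (0.550 and 380 CPM, log2 fold change 9.39 ± 0.31, edgeR adjusted p = 3.15e-06) and H2-T22 (19.8 and 50.1 CPM, 1.28 ± 0.21), with Gm11127 and Gm7030, all higher in NOD like both members.

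Near Dgkeos, Gm525 stood at 18.3 and 1.18 CPM (log2 fold change -4.02 ± 0.36, edgeR adjusted p = 0.000389), and so fell in NOD, where Dgkeos was lower too, while Dgke did not pass. Near Gm12256, the histone gene Hist3h2ba (60.9 and 7.69 CPM, -3.05 ± 0.25, edgeR adjusted p = 0.000217) fell in NOD, where the member was lower too, and Btnl10 (0 reads in C57BL/6J, 0.909 CPM in NOD) rose. Igtp, an interferon-inducible GTPase gene near Gm12246, fell (84.4 and 47.2 CPM, -0.90 ± 0.16, edgeR adjusted p = 0.0171) where the member was higher. Another histone gene, Hist1h3f near Gm46404, also fell where the member was higher (79.8 and 11.5 CPM, -2.89 ± 0.31, edgeR adjusted p = 0.00244).

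Cfl1, the gene of the actin-severing protein cofilin near 4930481A15Rik (723 and 332 CPM, -1.20 ± 0.21, edgeR adjusted p = 0.0142), Trub1 near B230217O12Rik (15.7 and 4.98 CPM) and Rell1 near 5830416I19Rik (41.7 and 19.5 CPM) fell in NOD, where their members were lower too. Rnpep near Ptprv (37.6 and 21.8 CPM), Mxra7 near BC018473 (2.63 and 0.559 CPM) and the metalloprotease gene Mmp14 near Gm43305 (5.24 and 14.2 CPM) differed in the direction opposite to that of their members. Elobl, which like Gm525 lies near Dgkeos, had no read in C57BL/6J and 0.602 CPM in NOD. Members themselves clustered little, with 4 pairs within 1 Mb of each other. Of these, 2410017I17Rik and Gm20478 (gap 4.8 kb) were higher in the same strain. The members of each other pair were higher in different strains, namely C030037D09Rik and Dgkeos (336 kb), 5830416I19Rik and Gm3716 (544 kb), and Gm12246 and Gm12256 (761 kb).

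A RefSeq promoter window (GRCm38.p6) within 1 kb of the GENCODE start was matched for 16 members. An E-box was found in 10 of them (62.5%, against 44.4% of 207 windows of other long noncoding genes and 51.4% of 32851 windows in all). TATA letters were in 5 (31.2%, against 13.0% and 13.6%), the TCF letters in 3 (18.8%, against 3.38% and 3.73%) and the GATA letters AGATAA in 3 (18.8%, against 6.76% and 11.2%). The RUNX letters TGTGGT were in 4 (25.0%, against 16.9% and 16.8%), and the ETS core CCGGAAG was in 1 (6.25%, against 22.2% and 8.86%). The median window held 50.7% G and C and 9 CpG dinucleotides, against 59.0% and 17 in other long noncoding genes and 52.7% and 7 in all windows. With 16 windows each match weighs heavily, and no test was made.

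Long noncoding RNAs with known roles were set beside the members as a list of 32, such as Malat1, Neat1, Gas5 and Pvt1, that did not include Nron or any other member. Of these, 30 were found and 26 tested, and by edgeR 0 passed in either direction, beside 3.68% of all genes, with a median log2 fold change of -0.22. At an unadjusted p under 0.05 there were 4, and DESeq2 called 0.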

How the data were processed

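The authors deposited raw counts, whole reads per Ensembl gene, in 1 table per library. Per the submitters' processing notes, STAR 2.5.0a, HTSeq 0.6.1 and build GRCm38 were used; for the annotation release, the strand setting and read filters nothing is given in the sources used here. In the counts, 116 of 147 genes lying within exons of a well-read coding gene on the opposite strand had reads, against 5 of 214 on the same strand, so strand was used in counting. Of 53465 genes, 53360 matched GENCODE M21, which gave types and coordinates, and 105 did not. Reads outside genes (39.98% to 59.08% of those listed) were not used.

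CPM was computed over all reads in genes. Counts summed by strain and B number (2 samples per strain) were tested with edgeR 4.0.16 in R 4.3.3 (filterByExpr, TMM, robust quasi-likelihood, 2 residual degrees of freedom), two-sided, with Benjamini-Hochberg adjustment; the script was tested on simulated data. The nearest coding gene had the smallest gap between gene bodies. Values in every library were given for the 8 highest members per direction and all members whose neighbour passed, together with neighbours of those; other genes named within 200 kb, and the windows of Nron and Ptpn7, were chosen after their values were seen. The members, lists and tests were chosen with earlier results of these data known. Alternatives were DESeq2 1.42.0, no scaling, no filter, a B-number block, single libraries and left-out samples. The repeat-masked share of promoters, planned as a feature, was not computed. The sequence of 1 further member planned for display is not reported here.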

Additional observations from a re-analysis of the deposited data

Results flagged for a closer look

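In 4 of 53 groups of 4 libraries searched, 1 library stood apart from the other 3 by Dixon's 95% criterion, which chance meets in about 1 of 20 groups. Gm6209 was highest in C57BL/6J library B1 T2, at 5.26 CPM beside 3.17 to 3.44 CPM. Ldlrad3 was lowest in C57BL/6J library B1 T1, at 68.94 CPM beside 89.84 to 92.77 CPM, which is still above every NOD library. Mvb12b was lowest in library B1 T2 of both strains, at 171.15 CPM beside 178.26 to 179.53 CPM in C57BL/6J and at 43.66 CPM beside 53.97 to 54.95 CPM in NOD, and the strains stayed apart.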

How the results depend on the processing

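The number of nearest coding genes past the test was 9 of 26. It was 4 of 14 over members that overlap no coding gene, 6 to 11 when a summed sample was left out, 8 without scaling factors, 11 without a filter, 13 with the 8 libraries as separate samples and 9 with DESeq2. With the B number as a replicate block it was 7, where Gm8909 and Msi2 lost the call. The number of all genes past the test was 637. It was 1535 with the 8 libraries as separate samples, 1188 without a filter, 256 to 1389 when a sample was left out, and 513 with the replicate block; where a strain was left with 1 sample, it was assumed to vary like the other strain. The differences between the B samples of the strains correlated at -0.123 across genes, and crossing the B numbers of 1 strain as a block gave 768 genes and 9 neighbours. The number of pairs in the same direction was 20 to 23 of 27 when a sample was left out. The number of members was 60 at a limit of 1 CPM, 20 at 5 CPM and 21 at a fold of 8, and 32 to 38 when a library was left out. Of 90 alternative fits of the 9 passing neighbours, 81 kept the call, 9 lost it and 0 changed direction; the cause of the losses was not tested. C57BL/6J depth limits what can be said of genes near 0 there, since 3 reads over that strain are the floor.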

Other observations

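With neighbours taken by the distance between start sites, 29 pairs had a tested coding gene, and 9 distinct coding genes passed. By this measure the neighbour of 2310001H17Rik was Cd69, the gene of an early activation marker of lymphocytes, at 41.2 ± 5.93 CPM in the C57BL/6J libraries and 81.7 ± 25.0 CPM in the NOD ones (SD, n = 4; log2 fold change 0.97 ± 0.25, edgeR adjusted p = 0.0801). Its values did not overlap between the strains but did not pass the test. The neighbour of Gm42047 became Klhdc4, at 30.6 ± 5.16 and 22.3 ± 2.06 CPM (edgeR adjusted p = 0.350), beside a member with no read in NOD. Klhdc4 (chr8:121796313-121829569, minus strand) and Gm42047 (chr8:121833247-121841178, plus strand) do not overlap and point away from each other. In the counts by position, Gm42047 was classed as overlapping Gm20388 instead.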
